A study of Rattus norvegicus with 99 samples.

Results

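The genes described are those of the angiotensin system and the adrenergic receptors that were followed in rat hearts under progressive pressure overload. They are Ace, Agt, Agtr1a, Agtr2, Adrb1, Adra1a and Adra1b, and were taken by gene symbol, with all 7 found among the 17337 genes of the table. Male rats, an F1 cross of female Wistar Kyoto with male Lewis, were banded with a clip on the pulmonary artery (PAB), which burdens the right ventricle, or on the aorta (AOB), which burdens the left, and sham animals served as controls. The clip does not constrict when placed, and the load builds up as the rat grows. At the stage of compensated hypertrophy the groups Sham-H, PAB-H and AOB-H held 7 animals each (age 11 weeks, 7 weeks after surgery by the sample labels). At heart failure there were 3 PAB-F and 2 Sham-RF animals (age 27 weeks, 21 weeks after surgery) and 4 AOB-F and 3 Sham-LF animals (age 30 weeks, 24 weeks after surgery). Each of the 33 animals gave 1 RNA library from the left ventricle (LV), the septum (Spt) and the right ventricle (RV), 99 in all, of whole tissue. Strain, sex and age are those of the labels. The study's text gives other ages, names the strain only as a hybrid of Wistar and Lewis, and speaks of rats of both sexes.

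Angiotensinogen, encoded by Agt, is the precursor from which angiotensin I is cut. Ace encodes the angiotensin-converting enzyme, a peptidase mostly of endothelial cells, which trims angiotensin I to angiotensin II. Angiotensin II acts through the type 1 receptor, encoded in rats by the paralogs Agtr1a and Agtr1b, and through the type 2 receptor, encoded by Agtr2. Noradrenaline from sympathetic nerves acts on the heart through the β1 receptor (Adrb1), which couples to adenylyl cyclase and raises contractility, and through the α1 receptors (Adra1a and Adra1b), which couple to phospholipase C. Both systems are known to be active in heart failure and are targets of its standard drugs.

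The libraries held 12.1 to 24.2 M (mega) counts. By their numbers, they form 3 consecutive stretches, here named library series. Series 1 holds LV and RV of replicates 1 and 2 of the groups of 7, while all LV and RV libraries of the failing animals and their shams belong to series 2 and their Spt libraries to series 3. Over the 1219 genes that differed between RV and LV in shams, the difference within 3 animals (PAB-H replicate 2, AOB-H replicate 1 and Sham-H replicate 6) ran against that of the other animals (Pearson's r from -0.84 to -0.77, across genes, which are not independent replicates). In addition, a tissue field of all RV libraries names the left ventricle, against their titles and source, and the description of the RV library of Sham-LF replicate 1 names the other older sham group, against its title and its column in the table. All libraries were used by title and animal number. Without these 3 animals, no count of members that passed the test differed in the hypertrophy-stage comparisons or between the chambers of shams. The comparisons of age and of stage, in which some of them also take part, were not repeated without them. Whole tissue is a mixture of cells, in which fewer cells of a type and less RNA per cell cannot be told apart.

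In the 36 sham libraries the members differed widely in level. Per length, as FPKM (reads scaled to gene length and library size), Adra1b was the most abundant member by far, with a median of 36.6 FPKM in LV, 38.1 in Spt and 41.1 in RV. Adrb1 followed with 7.78, 6.62 and 5.57 FPKM in the same order, and the converting enzyme gene Ace with 5.98, 6.01 and 4.98 FPKM. Adra1a lay at 2.49, 2.09 and 2.47 FPKM and Agtr1a at 1.78, 1.64 and 1.59 FPKM. Agt reached only 0.277, 0.272 and 0.423 FPKM. The ranges of Adrb1 and Ace overlapped in every chamber, as did those of Adra1a and Agtr1a, so neither pair could be ordered, whereas the lowest sham library of Adra1b (29.1 FPKM) lay above the highest of Adrb1 (14.7 FPKM).

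**Figure D1:**
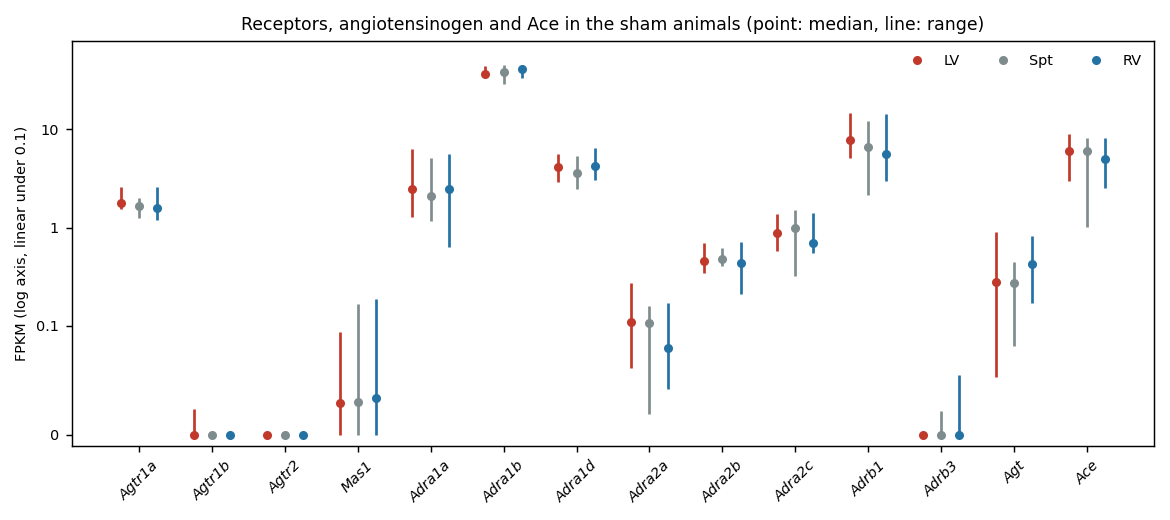
FPKM (log axis, linear under 0.1) of the receptors, of Agt and of Ace in the 12 sham animals, with the median as a point and the range as a line for LV (red), Spt (grey) and RV (blue). Adra1b stands above all other receptors shown, and Agtr2 and Agtr1b have medians of 0.

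Other receptors of both families give the frame. Adra1d, the remaining α1 receptor, had a median of 4.18 FPKM in LV of shams. The α2 receptors, which act mostly on nerve endings, were lower, with 0.110 FPKM for Adra2a, 0.455 for Adra2b and 0.871 for Adra2c, and Adrb3 had a median of 0 FPKM in every chamber. Mas1, a receptor for a shorter angiotensin peptide, was at a median of 0.0291 FPKM in LV.

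Agtr2 was not detectable at this depth. Only 1 of 99 libraries held a read of it, and it held 1 read. The paralog Agtr1b had 2 reads in all. A library with a count of 0 still allows up to 3 counts, which is 0.124 CPM (counts scaled to library size) in the deepest and 0.249 CPM in the shallowest library. Neither gene passed the filter on low counts, so 6 of the 7 members were tested. Reads that fit Agtr1a and Agtr1b equally would be uncertain, but Agtr1b took almost none. In the RefSeq genes of GRCr8, used for names and neighbours only, all 7 members matched by identifier. Agt overlaps Cog2 and Capn9 there, Ace overlaps the long noncoding RNA LOC120095193 and Adra1b overlaps LOC108352076, and if strand was not used in counting, reads shared with these neighbours would be uncertain.

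Within a gene, levels are given below as CPM after TMM normalization. Ace ranged from 3.45 to 31.5 CPM over all libraries, Agtr1a from 1.24 to 5.64, Adrb1 from 3.08 to 20.6, Adra1a from 0.904 to 11.6 and Adra1b from 53.1 to 119. These values rest on 43 to 615 reads for Ace, 19 to 124 for Agtr1a, 48 to 430 for Adrb1, 11 to 259 for Adra1a and 706 to 2534 for Adra1b. Agt rested on 0 to 62 reads with a median of 9, so its differences carry a large counting error. When the 21 groups of condition and chamber were put in order of their mean, the libraries of all 20 pairs of neighbours in the order overlapped for each of the 6 members.

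**Figure D2:**
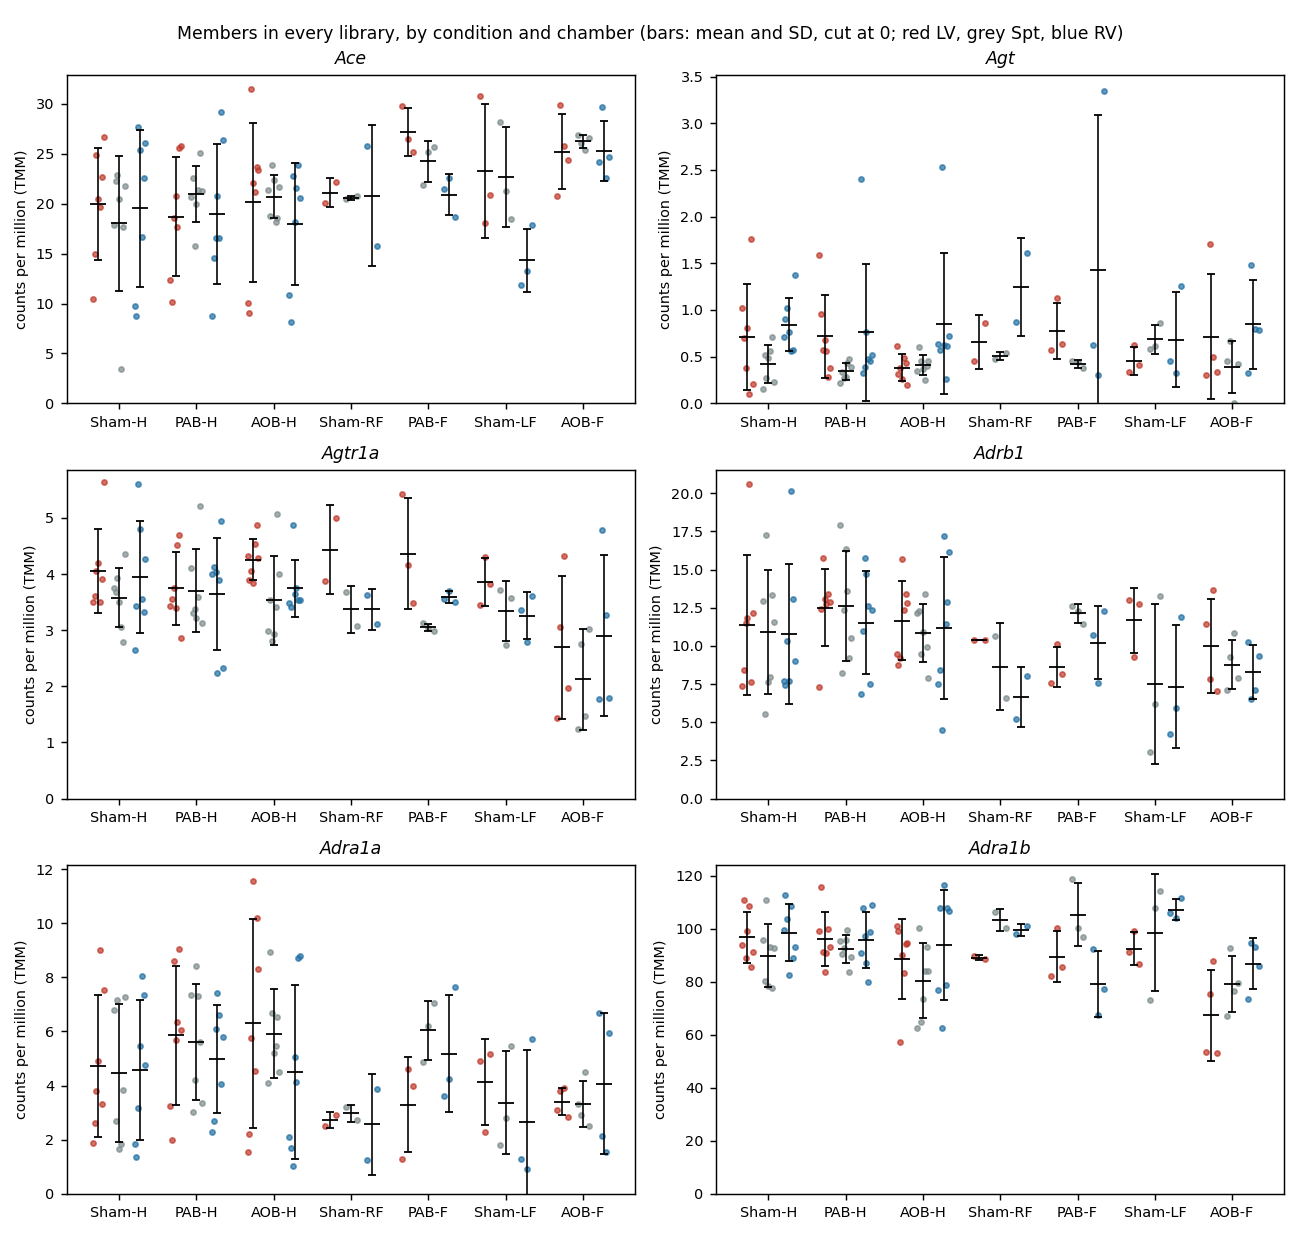
CPM (linear axes, TMM) of the 6 tested members in every library, by condition, with LV in red, Spt in grey and RV in blue, and the mean and SD as black bars cut at 0. Agtr1a and Adra1b are lowest on average in AOB-F, in Spt and in LV, and Agt stays under 1 CPM in most libraries.

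The ends of the order differed between the members. Agtr1a was lowest in AOB-F Spt (2.13 ± 0.90 CPM, SD, n = 4) and highest in Sham-RF LV (4.43 ± 0.79, n = 2). Adra1b was lowest in AOB-F LV (67.4 ± 17.1 CPM, n = 4) and highest in Sham-LF RV (107 ± 3.92, n = 3). Ace ran from 14.3 ± 3.17 CPM in Sham-LF RV (n = 3) to 27.2 ± 2.38 in PAB-F LV (n = 3). Adrb1 ran from 6.62 ± 1.97 CPM in Sham-RF RV (n = 2) to 12.6 ± 3.60 in PAB-H Spt (n = 7). In these 4 genes the libraries of the lowest and the highest group did not overlap. Both ends were picked from the 21 groups by these same values, so a gap between them is no test. The share of all genes with such a gap was not computed. Adra1a ran from 2.56 ± 1.87 CPM in Sham-RF RV (n = 2) to 6.30 ± 3.87 in AOB-H LV (n = 7), and Agt from 0.343 ± 0.093 CPM in PAB-H Spt (n = 7) to 1.42 ± 1.67 in PAB-F RV (n = 3), and in both genes the end groups overlapped.

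Library series moved with the levels of Ace and Adra1a and, with more overlap, of Adrb1. Among the hypertrophy-stage LV libraries, Ace had a median of 10.3 CPM (range 9.09 to 15.0) in the 6 libraries of series 1, 20.8 CPM (17.7 to 31.5) in the 9 of series 2 and 24.6 CPM (22.6 to 26.7) in the 6 of series 3. In RV the medians were 9.27, 20.8 and 25.0 CPM, and series 1 again lay wholly below the others (8.16 to 14.6 against 16.5 to 29.2 CPM). The Spt libraries of the same 6 animals were in series 2 or 3 and held 17.9 to 22.6 CPM. Adra1a showed the same order, with medians of 2.09, 5.74 and 7.92 CPM in LV, where series 1 did not overlap the rest, and 1.96, 5.46 and 6.58 CPM in RV, where it did. Adrb1 had medians of 8.59, 12.8 and 12.8 CPM in LV and 7.57, 12.6 and 12.6 CPM in RV, and its series overlapped in both. Of all tested genes, 13.1% in LV and 8.69% in RV lay wholly lower in series 1. Adra1b did not have this pattern, with 93.7 to 116 CPM in series 1 and medians of 90.2 and 93.8 CPM in series 2 and 3 of LV, and Agtr1a had 3.59, 4.05 and 4.49 CPM. Each series holds the 3 hypertrophy-stage conditions in equal numbers in LV and RV, and the failing animals are in the same series as their own shams, so series is not confounded with banding, but it is with chamber and in part with age.

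**Figure D3:**
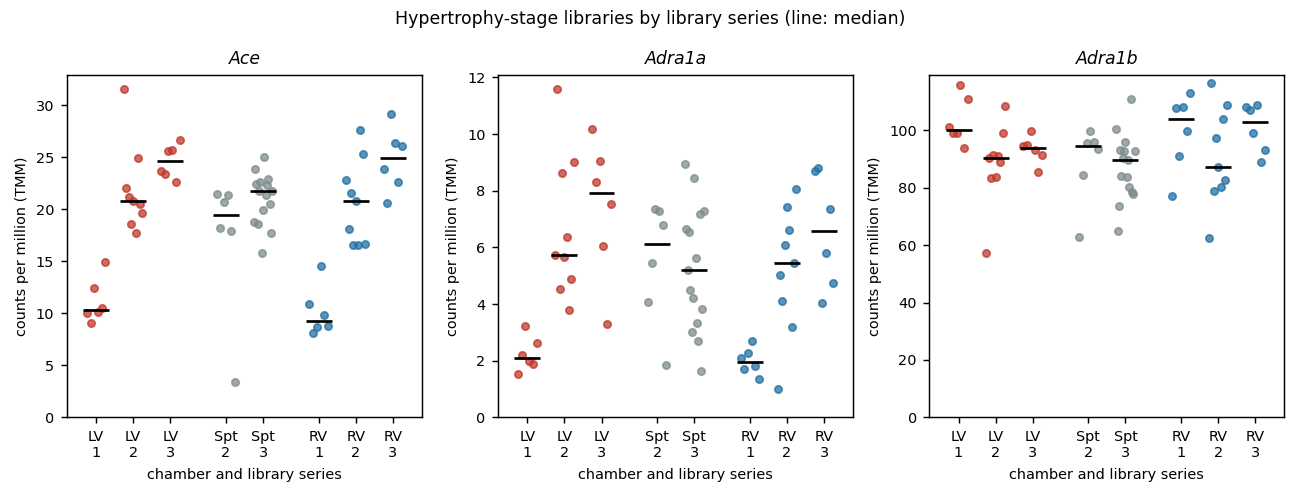
CPM (linear axes) of Ace, Adra1a and Adra1b in the 63 hypertrophy-stage libraries by chamber and library series, with the median as a line. Series 1 is low for Ace in LV and RV and low for Adra1a, and Adra1b shows no such step.

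The comparison of AOB-F with Sham-LF asks which genes differ in the failing left heart. In the LV, Agtr1a and Adra1b were lower on average and the other members did not differ beyond the spread between animals. None of the 6 tested members passed the test (edgeR, adjusted p under 0.05), and 98 of 11703 genes (0.837%) did. At an unadjusted p under 0.05 there were 2 members, both lower, and 12.7% of all genes. Between AOB-F and Sham-LF in LV no member was free of overlap, where 6.21% of all genes were lower and 5.67% higher without overlap. DESeq2 also called no member.

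Agtr1a was counted at 1.44, 3.05, 4.33 and 1.97 CPM in LV of AOB-F replicates 1 to 4 and at 3.45, 4.31 and 3.82 CPM in the Sham-LF animals. Of the failing animals 3 lay below all shams, but replicate 3 lay above them, so the groups overlapped. The log2 fold change was -0.50 ± 0.24 (SE, edgeR adjusted p = 0.379). In Spt the values were 1.24, 2.76, 1.47 and 3.03 CPM against 3.72, 2.73 and 3.57 CPM, a change of -0.66 ± 0.24 (edgeR adjusted p = 0.227). In RV they were 1.77, 4.78, 3.27 and 1.80 CPM against 3.36, 2.79 and 3.61 CPM, a change of -0.14 ± 0.29 (edgeR adjusted p = 0.831). In every chamber 2 of 4 failing animals were under 2 CPM, a level that none of the other 93 libraries had. This limit was not set in advance, and the lowest of the other libraries held 2.24 CPM (RV of PAB-H). The 3 chambers come from the same 4 animals.

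Adra1b, the abundant α1 receptor, was counted at 53.4, 75.4, 87.8 and 53.1 CPM in LV of AOB-F and at 91.3, 99.2 and 86.8 CPM in Sham-LF. Here again 3 failing animals lay below all shams and replicate 3 just inside their range. The change was -0.45 ± 0.15 (edgeR adjusted p = 0.158). In Spt, AOB-F had 67.2, 92.8, 76.4 and 79.5 CPM and Sham-LF 73.3, 108 and 114 CPM (-0.33 ± 0.15, edgeR adjusted p = 0.346). In RV, AOB-F had 73.4, 94.5, 93.1 and 86.1 CPM and Sham-LF 106, 104 and 112 CPM, and these groups did not overlap (-0.28 ± 0.16, edgeR adjusted p = 0.417). Of all genes tested in RV, 5.54% were lower in AOB-F without overlap.

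**Figure D4:**
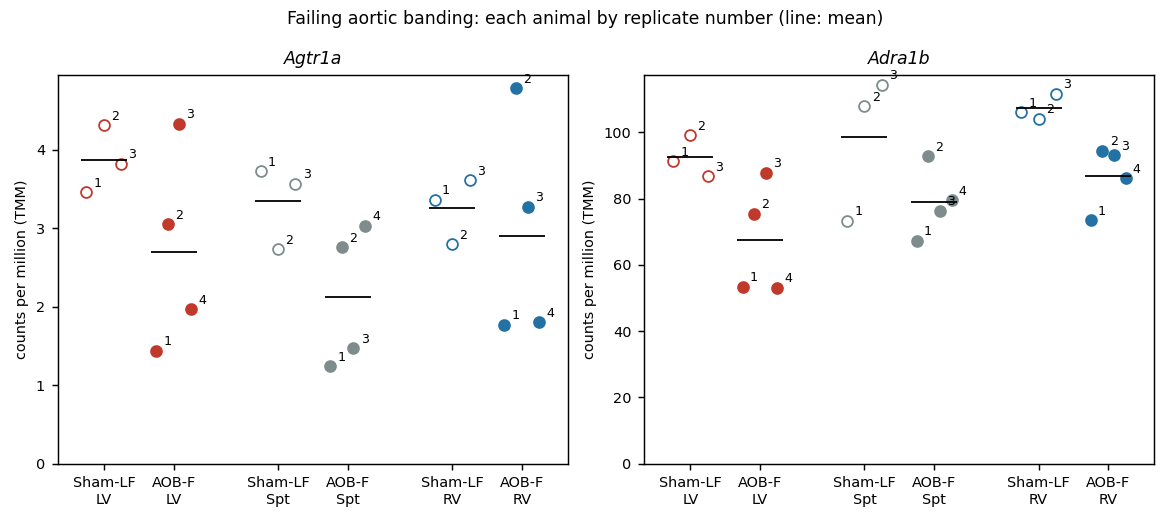
CPM (linear axes from 0) of Agtr1a and Adra1b in Sham-LF (open) and AOB-F (filled) animals, numbered by replicate, with the group mean as a line, for LV (red), Spt (grey) and RV (blue). In LV, AOB-F replicates 1 and 4 are the lowest and replicate 3 lies within or above the shams.

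The call in LV depended on AOB-F replicate 3. Without AOB-F replicate 3, Agtr1a differed by -0.82 (adjusted p = 0.0318) and Adra1b by -0.60 (adjusted p = 0.0197), and 2 of 6 members then passed the test with edgeR, as did 636 of all genes. Leaving out any other animal left both below 0, from -0.57 to -0.30 for Agtr1a and from -0.51 to -0.35 for Adra1b, and past no threshold. The count over all genes was 262 without AOB-F replicate 2 and 0 without any of the other animals. Nppa, the gene of the atrial natriuretic peptide and a marker of cardiac load, was at 17261, 3718, 2178 and 15923 CPM in LV of AOB-F replicates 1 to 4 and at 601 to 820 CPM in Sham-LF. In Spt it was at 13958, 3161, 11381 and 1828 CPM and in RV at 5975, 1373, 96.2 and 8501 CPM. Sham-LF had 351 to 847 CPM in Spt, and 77.9, 98.9 and 1244 CPM in RV replicates 1 to 3. That RV library of replicate 3 also held 551 CPM of Myl7, a gene of atrial muscle. Among the 4 AOB-F libraries of each chamber, the 2 with the most Nppa were those with the least Agtr1a and the least Adra1b. The share of all genes with this order was not computed. The AOB-F animals with low values were replicates 1 and 4 in LV and RV but 1 and 3 in Spt. A sample sheet of the study gives Spt columns of AOB-F animals in exchanged order, so which Spt library belongs to which animal is uncertain. In RV of PAB-F, Nppa was at 287, 5640 and 5285 CPM in replicates 1 to 3. There the library with the most Nppa had the least Adra1b (67.6 CPM) but the most Agtr1a (3.70 CPM).

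Markers of cell types were also compared between AOB-F and Sham-LF. The summed CPM of 5 cardiomyocyte markers (Myh6, Tnnt2, Actc1, Tnni3 and Ryr2) was 38585 to 51095 in LV of AOB-F and 52510 to 64501 in Sham-LF, with 4 of 5 markers lower and none past the test. In Spt it was 47067 to 56976 against 58903 to 72728 and in RV 47315 to 65425 against 67241 to 73749. In LV the 5 fibroblast markers summed to 2218 to 2571 CPM against 1906 to 2061, with 3 markers higher and 2 lower on average. In Spt 3 of the 5 and in RV 4 of the 5 were lower, and none passed the test. In LV the sums of endothelium, and of smooth muscle and pericytes, which carry much of the type 1 receptor, overlapped between the groups (266 to 379 against 297 to 347 CPM for the latter). In Spt all 5 smooth muscle and pericyte markers were lower (266 to 347 against 319 to 411 CPM), with overlap. All 4 macrophage markers were higher on average in each chamber of AOB-F, none past the test. Their sum was 199 to 294 CPM in LV of AOB-F against 152 to 217 in Sham-LF, and 119 to 195 against 127 to 148 in RV, both with overlap. In Spt it was 127 to 195 against 101 to 127 CPM, the lowest failing library lying just above the highest sham. The part of cell composition in the change of Agtr1a and Adra1b was not tested.

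The other members in LV of AOB-F gave no difference beyond their error. Adrb1 had 11.4, 7.81, 13.7 and 7.07 CPM against 13.0, 9.25 and 12.7 CPM (-0.22 ± 0.28), and the groups overlapped. Adra1a differed by -0.27 ± 0.57, Ace by 0.13 ± 0.34 and Agt by 0.69 ± 0.69, with edgeR adjusted p from 0.834 to 0.984. The higher mean of Agt came from replicate 2 (1.71 CPM, 28 reads), since the other failing animals had 0.303, 0.494 and 0.340 CPM and the shams 0.334 to 0.626 CPM. The median change of the 6 members was -0.24 in LV, beside 0.01 over all genes tested.

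In the RV of AOB-F, which is not the banded ventricle, the converting enzyme gene Ace was higher. It had 24.2, 29.6, 22.6 and 24.7 CPM in AOB-F and 11.8, 13.2 and 17.9 CPM in Sham-LF, without overlap. The change was 0.84 ± 0.39 (edgeR adjusted p = 0.368), and it did not pass the test. No member was called in RV, nor was any other gene (0%), 12.9% of all genes had an unadjusted p under 0.05 and 4.64% were higher in AOB-F without overlap. Within library series 2 alone, the change was 0.82 with an adjusted p of 0.111. Without Sham-LF replicate 1, the lowest of the shams and the library with the differing description, it was 0.70 ± 0.44 (edgeR adjusted p = 0.854). The endothelial markers summed to 839 to 1094 CPM in AOB-F and 880 to 976 in Sham-LF, with overlap. Of these 5 markers, 4 were higher and 1 lower on average (median change 0.24), and none passed the test. The part of cell composition in the change of Ace was not tested. The Sham-LF animals stood low in RV, since Sham-RF had 25.8 and 15.8 CPM there and PAB-F had 21.5, 22.6 and 18.6 CPM. In LV and Spt of AOB-F, Ace differed by 0.13 ± 0.34 and 0.19 ± 0.28. The difference between the changes in LV and RV was -0.71 ± 0.49 (edgeR adjusted p = 0.926), so the chambers were not shown to differ. In Spt of AOB-F, 0 of 6 members passed the test, 0.232% of all genes did, and Agtr1a and Adra1b were the 2 members with an unadjusted p under 0.05, beside 12.2% of all genes.

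The comparison of PAB-F with Sham-RF addresses the failing right heart and rests on 3 against 2 animals. In the RV, no gene passed the test (0%), so no member did, and 8.37% of all genes but none of the members had an unadjusted p under 0.05. Adra1b was lower, with 92.3, 67.6 and 77.3 CPM in PAB-F and 97.9 and 101 CPM in Sham-RF. These groups did not overlap, as for 18.6% of all genes that were lower, and the change was -0.34 ± 0.18 (edgeR adjusted p = 0.639). In the same libraries the cardiomyocyte markers summed to 52624 to 61591 CPM in PAB-F and 63375 to 65570 in Sham-RF, also without overlap, with 3 of 5 markers lower. All 4 macrophage markers were higher on average, with sums of 106 to 209 against 138 to 141 CPM, and no marker passed the test. The part of these cells in the lower Adra1b was not tested. Adra1a had 3.62, 4.25 and 7.65 CPM against 1.24 and 3.89 CPM (1.00 ± 0.85) and Adrb1 10.7, 7.59 and 12.3 CPM against 5.23 and 8.01 CPM (0.62 ± 0.48), both with overlap. Agtr1a was at 3.55, 3.70 and 3.50 CPM in PAB-F and 3.63 and 3.11 CPM in Sham-RF (0.09 ± 0.34), and Ace differed by 0.0021 ± 0.45. No failing PAB animal had Agtr1a under 2 CPM in any chamber, and no sham or hypertrophy-stage animal had either.

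Agt in the failing RV was decided by 1 library. PAB-F replicate 3 held 3.34 CPM (62 reads), the highest of all 99 libraries, beside 0.626 and 0.304 CPM in the other PAB-F animals and 0.872 and 1.61 CPM in Sham-RF. The change was 0.21 ± 0.82 with it and -1.43 ± 0.90 without it (edgeR adjusted p = 0.952 and 0.977). That library also held 1039.3 CPM of Myl7, the light chain of atrial muscle. In all, 8 libraries (6 of RV and 2 of LV) held over 500 CPM of Myl7, and their median of Agt was 1.62 CPM, beside 0.474 CPM in the other 91. Among the 10 libraries with the most Agt, 7 were of these 8. The 3 others of these 10 had little Myl7 (18.2 to 40.7 CPM) but much of the adipocyte markers Adipoq, Plin1 and Lep, which summed to 9.70 CPM in LV of AOB-F replicate 2, 10.5 in RV of Sham-RF replicate 2 and 5.66 in LV of PAB-H replicate 1. The median of this sum was 3.33 CPM in the 10 libraries (range 0.775 to 10.5) and 0.305 CPM in the other 89 (range 0 to 6.87), with overlap. The part of atrial or adipose tissue in the Agt values was not tested.

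In the Spt of PAB-F both Adra1a and Adrb1 were higher than in Sham-RF. Adra1a had 4.87, 6.20 and 7.03 CPM against 3.20 and 2.74 CPM (1.03 ± 0.54, edgeR adjusted p = 0.816) and Adrb1 12.6, 12.3 and 11.4 CPM against 10.7 and 6.62 CPM (0.49 ± 0.41, edgeR adjusted p = 0.817). Neither gene overlapped between the groups, and Ace was also higher and Agt lower without overlap, but with 3 against 2 animals 21.2% of all genes were higher and 21.6% lower in this way. No gene passed the test (0%), and 4.14% of all genes had an unadjusted p under 0.05. In the fit of the 5 libraries compared alone, Adra1a was called (1.03, adjusted p = 0.0203), and with the replicate number as a block Adra1a (0.90, adjusted p = 0.0111) and Adrb1 (0.56, adjusted p = 0.0244) were called. Those fits called 792 and 1545 genes, where the fit of all 33 Spt libraries called none, and the numbers do not pair the animals. In the LV, Adrb1 went the other way, with 7.58, 10.1 and 8.19 CPM in PAB-F and 10.4 CPM in both Sham-RF animals (-0.27 ± 0.34), and Ace was higher (29.8, 26.5 and 25.2 against 20.1 and 22.2 CPM, 0.36 ± 0.40). Neither overlapped there, as 10.5% of all genes that were lower and 8.02% that were higher. No gene passed the test in LV (0%), and no member had an unadjusted p under 0.05, beside 1.04% of all genes.

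**Figure D5:**
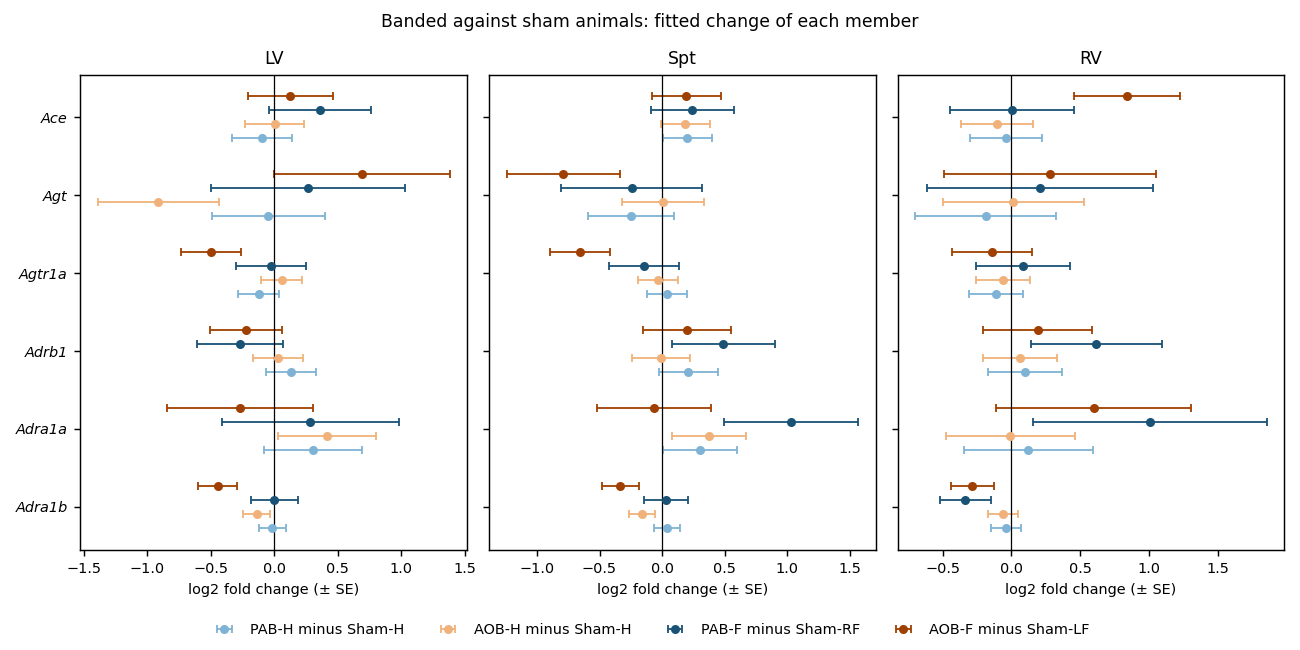
Log2 fold change ± SE of the 6 tested members in the 12 comparisons of banded with sham animals, by chamber, on linear axes. The hypertrophy-stage changes (light, 7 animals a group) run from -0.91 for Agt to 0.41 for Adra1a, both in LV of AOB-H. The failing-stage changes (dark, 2 to 4 animals a group) run from -0.79 for Agt in Spt of AOB-F to 1.03 for Adra1a in Spt of PAB-F. Agtr1a and Adra1b of AOB-F (brown) lie below 0 in the 3 chambers.

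At the stage of compensated hypertrophy, with 7 animals a group, no member differed from Sham-H in any of the 6 comparisons. No gene at all passed the test in any of them (0%), no member had an unadjusted p under 0.05, and for all genes that share was 4.72% in LV, 4.44% in Spt and 1.26% in RV of PAB-H, and 4.54%, 15.9% and 0.937% in the same chambers of AOB-H. Agtr1a differed by -0.12 to 0.06 (SE from 0.16 to 0.20), Adra1b by -0.16 to 0.04 (SE from 0.10 to 0.11) and Adrb1 by -0.01 to 0.21 (SE from 0.20 to 0.27). Ace differed by -0.10 to 0.20 (SE from 0.19 to 0.26). Adra1a was higher on average in most of these comparisons, by up to 0.41 in LV of AOB-H, but with SE from 0.29 to 0.47. Agt differed by -0.91 to 0.01 (SE from 0.33 to 0.51). The lowest value, the largest change of any member at this stage, was in LV of AOB-H, with 0.382 ± 0.144 CPM against 0.711 ± 0.568 CPM in Sham-H (-0.91 ± 0.48, edgeR adjusted p = 0.956). In LV of AOB-H, Agtr1a was at 3.84 to 4.88 CPM (median 4.29) beside 3.50 to 5.64 CPM (median 3.92) in Sham-H, and Adra1b at 57.3 to 101 CPM (median 94.4) beside 85.5 to 111 CPM (median 93.7). Both groups overlapped in both genes.

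The stages were compared directly by the interaction of banding with stage. For AOB in LV, the failing-stage change minus that of the hypertrophy stage was -0.56 ± 0.29 for Agtr1a (edgeR adjusted p = 0.678) and -0.31 ± 0.19 for Adra1b (edgeR adjusted p = 0.747). It was larger but less precise for Agt (1.60 ± 0.84, edgeR adjusted p = 0.680) and Adra1a (-0.68 ± 0.69, edgeR adjusted p = 0.946). For PAB in RV it was -0.30 ± 0.21 for Adra1b and 0.88 ± 0.97 for Adra1a, with edgeR adjusted p of 1.00. No gene passed either test (0%), 7.60% and 2.67% of all genes had an unadjusted p under 0.05, and no member did. The change of the banded ventricle minus that of the other ventricle was tested likewise. It was -0.35 ± 0.37 for Agtr1a and -0.15 ± 0.22 for Adra1b in AOB-F (LV minus RV) and 0.89 ± 0.60 for Adrb1 in PAB-F (RV minus LV), with edgeR adjusted p from 0.926 to 0.999, and again 0% of all genes passed, with 2.40% and 4.89% under an unadjusted p of 0.05. The members were thus not shown to differ between stages or between chambers in their response.

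Age and chamber were compared in the shams. The 5 older shams differed from the 7 Sham-H animals in no member. Adra1a was lower on average in the older animals in LV, Spt and RV (-0.44 ± 0.44, -0.50 ± 0.34 and -0.78 ± 0.54), and Adrb1 too in Spt and RV (-0.46 ± 0.26 and -0.60 ± 0.31), with edgeR adjusted p from 0.357 to 0.973 for these values. All genes passed this test in 0.0171% of cases in LV, 1.18% in Spt and 0.0937% in RV, and no member had an unadjusted p under 0.05, beside 6.85%, 18.5% and 11.7% of all genes. The older shams lie in 1 library series in LV and RV, whereas Sham-H spans 3. Within series 2, Adra1a differed by -0.77 ± 0.36 and Adrb1 by -0.41 ± 0.22 in LV (-0.03 ± 0.22 over all series). In RV within series 2, Ace differed by -0.47 ± 0.18 (-0.23 ± 0.29 over all series), Agtr1a by -0.48 ± 0.27 (-0.25 ± 0.22), Adrb1 by -0.84 ± 0.37 and Adra1a by -1.05 ± 0.58. There Adra1a in LV and Ace and Adrb1 in RV had an unadjusted p under 0.05, beside 6.86% of all genes in LV and 18.3% in RV, and no gene passed the adjusted test. Within series 3, the values of Adra1a and Adrb1 in Spt were -0.51 ± 0.35 and -0.47 ± 0.29.

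Between chambers of the shams, many genes but no member passed the test. Of 11924 genes, 10.2% differed between RV and LV, 2.32% between Spt and LV and 8.06% between Spt and RV. These were 1219, 277 and 961 genes. Without the 3 animals whose RV and LV difference ran against the others, they were 2576, 540 and 1533. Agt was lower in Spt than in RV by 0.83 on the log2 scale (SE 0.36, edgeR adjusted p = 0.143), the only member with an unadjusted p under 0.05, beside 20.7% of all genes. Sham-H animals had 0.159 to 0.712 CPM of Agt in Spt (median 0.481) and 0.562 to 1.37 CPM in RV (median 0.763). Of the 8 libraries rich in Myl7, 2 were sham RV libraries and none was a Spt library. Without these 8 libraries no member was called either. Ace differed between Spt and LV by -0.10 ± 0.18 (edgeR adjusted p = 0.892), and by -0.41 ± 0.13 (adjusted p = 0.0375) with library series as a covariate, under which it was called. Adra1b, with its high counts, differed by -0.10 to 0.10 between chambers (SE 0.08).

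The members were also set side by side with each other over the 21 group means of log2 CPM. Adrb1 and Adra1a ran together, with Pearson's r of 0.82 over the group means and 0.77 over the 99 libraries. The other 14 pairs had r from -0.44 to 0.37 over the group means, Agtr1a with Adra1b being the highest of them. These points share animals, library series and depth, and r is given as a description only.

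The genes whose group means ran most like each member were found among 11924 genes. For Ace they were Lrrk1 (r = 0.92), Mink1 (0.90) and Gigyf1 (0.89), for Agtr1a Cxcr6 (0.88), Frmd6 (0.88) and Mme (0.85), and for Agt Plxnb3 (0.86), Mpzl2 (0.83) and Nkain4 (0.83). For Adrb1 they were Gbas (0.96), Rasl10b (0.96) and Abcb8 (0.95), for Adra1a Pde4dip (0.95), Dcaf8 (0.94) and Slco5a1 (0.94), and for Adra1b Cd1d1 (0.94), Idh3g (0.94) and Rab3a (0.94). Over the single libraries r fell to 0.44 to 0.53 for the genes nearest to Agt, and stayed at 0.65 to 0.93 for those nearest to the other members.

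The 4 lists of further genes set the members in their pathways. Of the rest of the angiotensin system, 24 of 25 genes were in the table and 16 were tested in at least 1 fit. None was called upon AOB-F or PAB-F in any chamber. In LV of AOB-F the median change of the 15 tested there was -0.0014, beside 0.014 over all genes, and no gene of the list had an unadjusted p under 0.05. In shams, RV was lower than LV in Anpep, an aminopeptidase that degrades angiotensin III (-0.27 ± 0.08), and in Atp6ap2, an accessory protein of the vacuolar proton pump (-0.25 ± 0.08), both called with edgeR. Spt was higher than RV in Enpep, the aminopeptidase that forms angiotensin III (0.35 ± 0.09, edgeR adjusted p = 0.0040), in Anpep (0.27 ± 0.08) and in Atp6ap2 (0.27 ± 0.09), and lower than LV in Agtrap, a protein that binds the type 1 receptor (-0.27 ± 0.07). Library series is confounded with chamber for Spt. Calls of list genes between Spt and a ventricle, here and in the lists below, were not followed with series as a covariate. Calls of list genes between any chambers were not repeated without Sham-H replicate 6, whose RV and LV difference ran against the other animals. Bdkrb2, the bradykinin B2 receptor, was higher in Spt of older shams (0.77 ± 0.20, edgeR adjusted p = 0.0469). In that comparison 137 genes were called, but none with Sham-RF alone, and 38, 4 and 3 without Sham-RF replicate 2, Sham-LF replicate 1 and Sham-LF replicate 2.

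Of the other adrenergic receptors, 5 of 6 were tested and none was called in any comparison. Adra1d, the remaining α1 receptor, had 5.41 ± 3.12 CPM in LV of AOB-F (n = 4) and 10.6 ± 1.75 CPM in Sham-LF (n = 3), a change of -0.95 ± 0.30 (edgeR adjusted p = 0.121). Of the 5 tested there, 2 were higher on average, and the median was -0.09.

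Of the 33 symbols listed for receptor coupling and desensitisation, 30 were in the table and tested. Among the absent symbols, Grk2 and Grk3 are other names of Adrbk1 and Adrbk2, which were tested, and Adcy9 was not found. Prkcd, a protein kinase C, rose in LV of AOB-F (37.5 ± 11.0 against 22.6 ± 4.16 CPM, log2 fold change 0.74 ± 0.17, edgeR adjusted p = 0.0352) and in Spt (46.3 ± 11.4 against 27.0 ± 3.07 CPM, 0.76 ± 0.15, edgeR adjusted p = 0.0277), and was the only gene of the lists that passed upon banding. Neither call held under every setting. No gene was called in LV without any 1 of the Sham-LF animals or AOB-F replicate 1 or 4, within library series 2, with only the libraries compared or with the replicate block. In Spt none was called without Sham-LF replicate 1 or 2 or AOB-F replicate 1 or 3, or with only the libraries compared. A further 3 genes were higher and 3 lower in LV at an unadjusted p under 0.05, which with Prkcd made 7 of 30, beside 12.7% of all genes. The higher ones were Grk5 (0.46 ± 0.22), a receptor kinase, Arrb2 (0.38 ± 0.16), an arrestin, and Adrbk2 (1.40 ± 0.67), another receptor kinase that was near the floor at 0.585 and 0.214 CPM. The lower ones were Adcy6 (-0.50 ± 0.20), an adenylyl cyclase, Pln (-0.35 ± 0.12), which encodes phospholamban, and Rgs4 (-0.51 ± 0.25), a regulator of G protein signalling, with edgeR adjusted p from 0.153 to 0.391 for these values, Grk5 at 0.361, Arrb2 at 0.285 and Adrbk2 at 0.372. None of the list reached an unadjusted p under 0.05 in RV of PAB-F. In shams, RV was lower than LV in Adrbk1 (-0.22 ± 0.05), the main receptor kinase, and Gnai2 (-0.20 ± 0.05), and higher in Plcb4 (0.24 ± 0.07) and Pln (0.19 ± 0.06). Spt was higher than LV in Plcb4 (0.26 ± 0.07), and against RV higher in Gnai3 (0.21 ± 0.07) and lower in Rgs2 (-0.45 ± 0.11). Adcy4 (0.66 ± 0.16) and Gnas (0.37 ± 0.07) were called higher in Spt of the older shams. That comparison called no gene with Sham-RF alone, 4 without Sham-LF replicate 1 and 3 without Sham-LF replicate 2.

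Of the genes of noradrenaline synthesis, uptake and breakdown, 7 were tested in each failing ventricle and none passed the test. In both LV of AOB-F and RV of PAB-F, 3 were higher and 1 lower at an unadjusted p under 0.05, beside 12.7% and 8.37% of all genes. Maoa, the monoamine oxidase that breaks noradrenaline down, was at 1036.9 ± 506 CPM in LV of AOB-F and 414 ± 93.4 in Sham-LF (1.34 ± 0.38, edgeR adjusted p = 0.0792), and at 675 ± 304 CPM in RV of PAB-F and 148 ± 54.5 in Sham-RF (2.19 ± 0.78, edgeR adjusted p = 0.524). Dbh, which forms noradrenaline, was at 5.85 ± 3.96 and 2.55 ± 0.55 CPM in the former (1.20 ± 0.38) and at 3.52 ± 1.56 and 1.96 ± 0.32 CPM in the latter (0.85 ± 0.41). Slc22a3, a transporter that clears catecholamines into cells, was lower in both (-0.81 ± 0.27 and -0.54 ± 0.25). Ddc, a decarboxylase of the same pathway, was higher in RV of PAB-F (0.70 ± 0.25), and edgeR adjusted p ran from 0.0792 to 0.153 for the genes named here in LV of AOB-F and from 0.524 to 0.590 in RV of PAB-F. Of the 10 genes on the list 8 were tested, Th and Slc6a2 of sympathetic nerves staying under the filter. In shams, RV was lower than LV in Maoa (-0.75 ± 0.25, edgeR adjusted p = 0.0435) and Ddc (-0.33 ± 0.09), and Ddc was higher in Spt than in RV (0.55 ± 0.09).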

How the data were processed

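Whole heart tissue was sequenced as 1 polyadenylated RNA library per chamber of each animal. Per the submitters' notes and the study's methods, the authors used Trim Galore for trimming, STAR for mapping to Rnor6.0 and featureCounts for counts per gene; whether strand was used in counting is not given in the sources used here. The deposited counts were not normalized. The deposited normalized counts, a linear signal, are counts divided by a DESeq2 size factor, and the deposited FPKM values divide these by gene length. Only counts entered tests. Columns of the authors' own comparisons were not used.

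Members were the rows with the 7 gene symbols. Members and lists were chosen with earlier results of these data known. Samples were grouped from their labels. edgeR 4.0.16 in R 4.3.3 (TMM, filterByExpr, quasi-likelihood F test, Benjamini-Hochberg over all tested genes, threshold 0.05) was fitted to the 33 libraries of each chamber, and to all 99 libraries for comparisons between chambers, and was tested on simulated data. CPM values are after TMM. Genes of the 4 fixed lists were named where their adjusted p was under 0.05, or where their unadjusted p was under 0.05 in the failing LV upon AOB or the failing RV upon PAB. Some genes of the lists are not reported here. The 3 genes nearest to a member were ranked by Pearson's r over the 21 group means of log2 CPM (prior count 1). Alternatives were DESeq2 1.42.0, RLE factors, no filter, other sets of libraries, library series, a block, FPKM and leaving out each animal. Library totals ranged from 12.1 to 24.2 M counts, and limits from counts cover counting error only.

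Animal numbers pair the chambers. Deviations from the group mean correlated with a median r of 0.40 between RV and LV of the same animal, and in 26 of 33 animals r was over 0.1. Replicate numbers of banded and sham groups name different animals.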

Additional observations from a re-analysis of the deposited data

Results flagged for a closer look

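Within groups of 4 to 10 animals, 72 sets of 1 member in 1 group were examined for a library that stands apart by Dixon's criterion, which chance meets in about 1 of 20 sets, and 9 libraries did. Ace in Spt of Sham-H replicate 5 was at 3.45 CPM (43 reads), beside 17.7 to 22.9 CPM in the other 6. In that library Lrrk1, Mink1 and Gigyf1, the genes nearest to Ace by pattern, were also low, at 3.93, 54.7 and 8.51 CPM. The other 6 libraries had 16.5 to 18.7, 93.9 to 107 and 19.9 to 27.4 CPM of them. Lrrk1, Mink1 and Gigyf1 were picked by group means that include this library, so their low values are not independent of that of Ace. Agtr1a, Adrb1, Adra1a and Adra1b lay within the range of the others.

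Agt stood high in LV of AOB-F replicate 2 (1.71 CPM), in RV of PAB-H replicate 1 (2.40 CPM) and in RV of AOB-H replicate 3 (2.54 CPM), where Myl7 was at 18.2, 1130 and 1075 CPM. Agtr1a stood high in LV of Sham-H replicate 7 (5.64 CPM, next 4.20) and in RV of AOB-H replicate 3 (4.88 CPM, next 3.75). Adrb1 stood high in LV of Sham-H replicate 5 (20.6 CPM, next 12.2) and low in LV of PAB-H replicate 1 (7.31 CPM, next 12.4), and Adra1b low in LV of AOB-H replicate 3 (57.3 CPM, next 83.3). In the failing PAB animals, all Adrb1 values were below both shams in LV (-0.27 on the log2 scale) and above both in Spt, and the difference between these chambers was not tested.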

How the results depend on the processing

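The count of members called was 0 in all 22 comparisons, and it was also 0 in 373 of 377 alternatives. It was 1 for PAB-F in Spt with only the libraries compared, 2 there with the replicate number as a block, 1 for Spt against LV in shams with library series as a covariate, and 0 to 2 for AOB-F in LV when 1 animal was left out (2 without AOB-F replicate 3). The replicate block changed no other member call, and the animal as a block between chambers called no member while it moved the count over all genes from 1219 to 1984 for RV against LV, from 277 to 535 for Spt against LV and from 961 to 1543 for Spt against RV. The replicate numbers of banded and sham groups pair no animals, and under the block AOB-F in LV had 0 calls over all genes and AOB-F in Spt 176.

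Of 277 alternatives for the log2 fold changes of members named singly, 263 kept their direction and side of the threshold, 6 passed it and 8 turned. In the failing RV of PAB, Agt was at -1.43 under the replicate block, from -1.43 to 0.74 when 1 animal was left out (-0.14 without Sham-RF replicate 1, -1.43 without PAB-F replicate 3), Ace from -0.30 to 0.42 (-0.30 without Sham-RF replicate 2, -0.05 without PAB-F replicate 2) and Agtr1a from -0.013 to 0.22 (-0.013 without Sham-RF replicate 2). In LV of AOB-F, Ace ran from -0.023 (without Sham-LF replicate 2) to 0.38 and Agt from -0.23 (without AOB-F replicate 2) to 0.96. FPKM in place of CPM left all 12 ratios of failing-stage levels within 1 SD.

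Counts over all genes moved by over 1.5 times in 88 of 377 alternatives. For AOB-F in LV (98) the count was 366 with library series, 247 by DESeq2, 0 within series 2 and 0 with only the libraries compared, and from 0 (without AOB-F replicate 1 or 4 or any Sham-LF animal) to 636 (without AOB-F replicate 3) with 1 animal left out. For AOB-F in Spt (27) it was 144 by DESeq2 and from 0 (without Sham-LF replicate 1, Sham-LF replicate 2, AOB-F replicate 1 and AOB-F replicate 3 in turn) to 234 (without AOB-F replicate 4) with 1 animal left out. The causes were not tested. The alternative without the libraries rich in Myl7 was added after seeing the data. Depth limits Agt and Agtr2 most, and 2 to 4 animals a group limit all failing-stage values.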
